A study of Citrullus lanatus with 30 samples.

Results

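A set of 142 of the 22596 watermelon loci measured was low in young fruit flesh and high at both 20 and 30 days after pollination (DAP). A locus is a stretch of the genome that the files name by its coordinates alone. The set was chosen on mean FPKM, that is fragments per kilobase of locus scaled to the library's total, in flesh. The stages used were PD at 0 DAP, SW at 5 DAP, BW at 10 DAP, CT at 20 DAP and RF at 30 DAP. Members had means of at least 10 FPKM at CT and at RF, a smaller of those means at least 4 times the largest of the PD, SW and BW means, and an RF mean of at least 0.5 and under 4 times the CT mean. The means used PD replicates 1 and 2, CT replicates 2 and 3, and all 3 replicates of SW, BW and RF. Because these values chose the members, the rise in flesh is described below without a test.

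The fruit belonged to *Citrullus lanatus*, and the 6 flesh stages, with AP (1 DAP) as the sixth, had 3 libraries each from cultivar 97103. Rind of the same cultivar was profiled as R2_RF and R4_RF (both 30 DAP) and R4_CT (20 DAP), with 2 libraries each. Flesh of 20 DAP was profiled as 5_Aza, whose treatment label is spelled 5-zazcytidine, and as Mock, labelled wild-type, with 3 libraries each. Neither label gives a cultivar, a dose or a duration. The titles' abbreviations, R2 and R4 among them, are not spelled out in the labels, and samples with rind as source name carry flesh as tissue. No label says whether replicates came from separate fruits, so p-values reflect only how far the libraries of a group spread, which may be technical variation.

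Watermelon flesh turns from white to coloured as it ripens, gathers sugars and carotenoids such as lycopene, and softens, while the rind stays firm. Its ripening is usually classed as non-climacteric, meaning that it proceeds without the burst of ethylene that drives tomato ripening. Azacytidine, a cytidine analogue, blocks DNA methyltransferases, and in tomato such treatment is known to advance ripening of the treated area. The deposited values pair no locus with a gene name or product, so loci are given by position (in the genome sequences that the files call WM97pbV1), and flesh or rind could not be checked against marker genes.

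Summed FPKM lay between 762714 and 886495 per library, and the correlation between replicates on log2(FPKM + 1) ran from 0.991 to 0.996. Read depth is unknown, since FPKM does not keep it. Of the 30 libraries, 28 were usable locus by locus. The other 2, AP replicates 1 and 2, held values that could not be assigned to their loci, so AP rests on 1 library. The stage libraries were written in another number format than the Mock, 5_Aza and rind libraries, so tests were run only within the second set. The levels of stage flesh and of the other groups are set side by side without a test.

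In the young flesh most members were low. Their median level was 1.91 FPKM at PD, 2.61 FPKM in the AP library, 2.83 FPKM at SW and 5.50 FPKM at BW, and then 64.4 FPKM at CT and 102.7 FPKM at RF. The smaller of the CT and RF means was at least 4 times the AP value in 136 of 142 members. In the others the AP value reached up to 62.9% of that mean. The CT and RF means chose the members, and AP lies in age between PD and SW, which the rule held low. The count for AP was thus close to fixed in advance, and no share over other loci is given. Summed, the members held 0.163% of all FPKM at PD, 0.206% at AP, 0.233% at SW and 0.384% at BW. They held 4.36% ± 0.14 at CT and 5.66% ± 0.03 at RF (SD, n = 3 each). No library of 20 or 30 DAP stage flesh came near any younger one on this measure. The rule chose the members on most of these libraries, so that gap was close to fixed in advance. In bulk tissue, more cells of a type and more RNA per cell cannot be told apart.

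**Figure D1:**
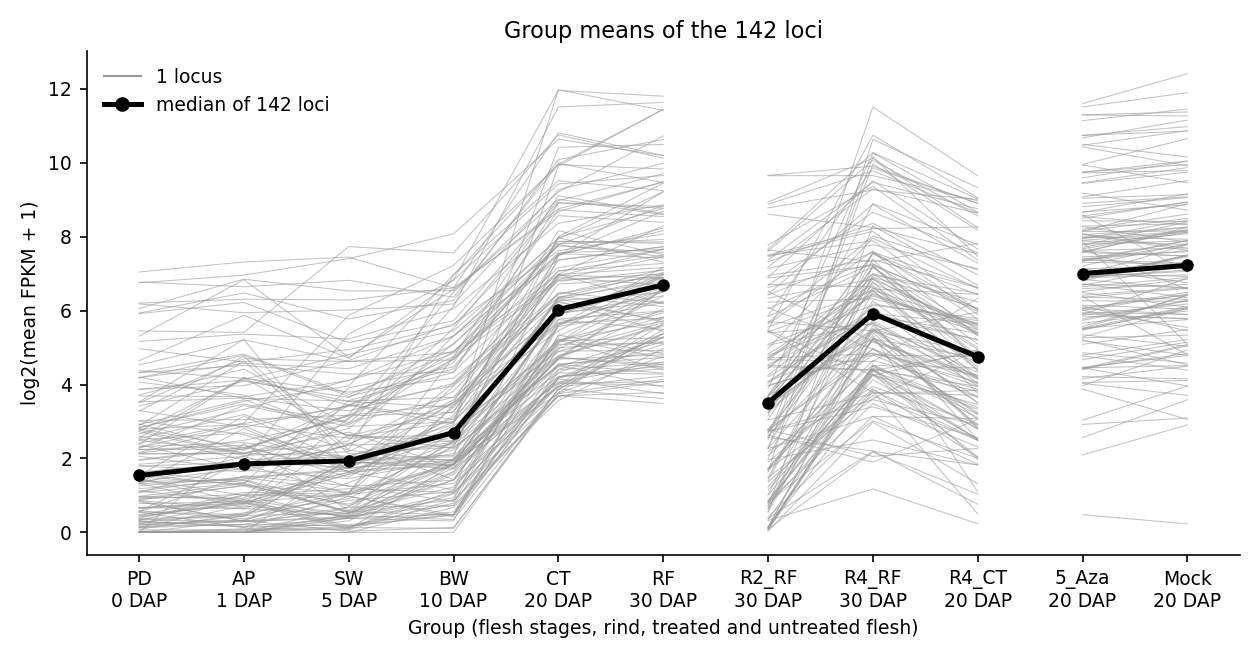
Mean level of each of the 142 loci in the 11 groups, as log2(FPKM + 1), with the median over loci in black. PD and CT means use the libraries of the rule, and the other groups use all usable libraries. The median climbs steeply between BW and CT, is low in R2_RF rind and high in R4_RF rind, and is close between 5_Aza and Mock flesh.

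**Figure D2:**
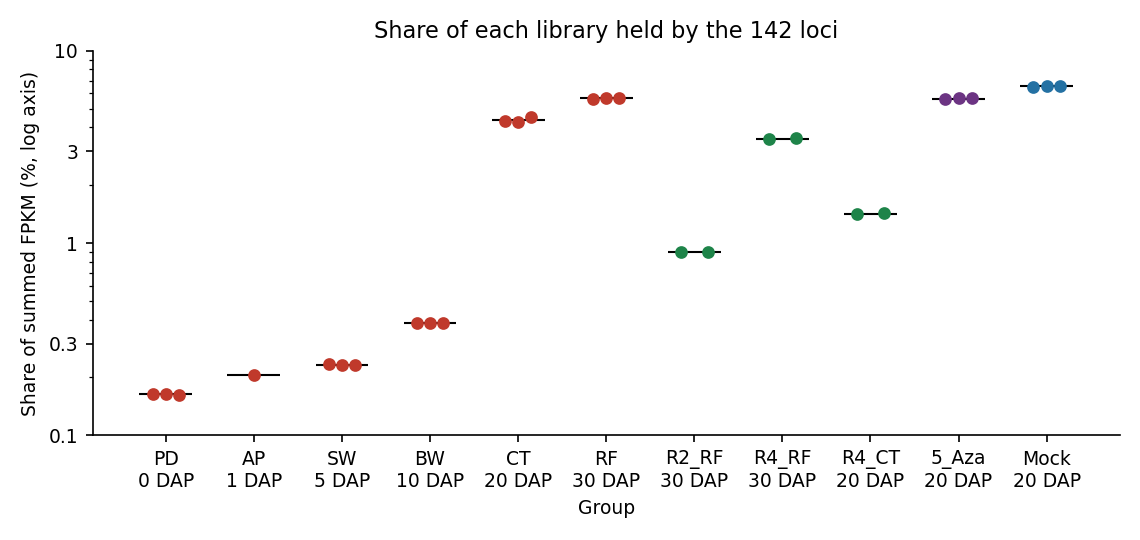
Percent of each library's summed FPKM held by the 142 loci, on a log axis, with 1 point per usable library and a bar at the group mean. Early flesh lies between 0.162% and 0.385%, R2_RF rind near 0.900%, R4_CT rind near 1.42%, R4_RF rind near 3.49%, and flesh of 20 and 30 DAP between 4.28% and 6.57%.

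The members differed widely in how large the rise was. The smaller of the CT and RF means was 4 to under 8 times the largest early mean in 69 members, 8 to under 16 times in 30, 16 to under 64 times in 34 and at least 64 times in 8. The remaining member, chr1:4400899-4401279, was listed at 0 in all 10 usable libraries of 0 to 10 DAP. The median was 8.50 times. BW was the highest of the 3 early means in 103 members, PD in 23 and SW in 15, leaving out the member at 0, and in 63 members BW was at least 2 times both PD and SW. In 18 members all 3 early means were under 1 FPKM, whereas 58 members already had an early mean of at least 10 FPKM.

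Most members stood higher at RF than at CT. The RF mean was above the CT mean in 100 of 142, at least 2-fold in 29, and the median RF to CT ratio was 1.31. Every RF library was above both CT libraries of the rule in 92 members and below both in 34. No matching share over other loci is given, so whether these counts are particular to the set was not tested. The CT and RF values behind the counts and the RF to CT ratio also helped to choose the members. The largest ratio was 3.74, at chr5:2292734-2294912, with 25.4, 25.6 and 24.2 FPKM in the CT libraries and 88.9, 95.8 and 94.8 FPKM in the RF libraries. The smallest was 0.556, at chr10:25113820-25115505, with 35.5, 34.7 and 37.2 FPKM in the CT libraries and 20.7, 19.1 and 20.2 FPKM in the RF libraries. In both loci CT and RF did not overlap. Next to them came chr5:18817785-18820373 with a ratio of 3.71 and chr10:21422527-21428398 with 0.563.

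The limits of the rule cut through a continuous range. From 4 to 4.4 times the largest early mean lay 13 members, and 27 loci that met every other limit lay from 3.6 to 4 times. The nearest inside were chr1:1035686-1036237 at 4.003 and chr5:31236643-31240666 at 4.09, and the nearest outside were chr5:6731346-6731959 at 3.99 and chr10:8630931-8632258 at 3.97. On the RF to CT ratio, 13 loci fell outside at 4 or more, the nearest at 4.10, and 3 fell outside under 0.5, the nearest at 0.462. With a smaller mean from 8 to 10 FPKM, 7 loci were left out, and 5 members lay from 10 to 12 FPKM.

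The flesh libraries PD replicate 3 and CT replicate 1 were not used by the rule. CT replicate 1 was at least 4 times PD replicate 3 in 141 of the 141 members with a value in both, against 8.6% of all 16795 loci compared. It was at 10 FPKM or more in 138 of these 141. The member without a value, chr1:28361410-28362048, lies in a stretch of CT replicate 1 that was left out because its values did not follow the loci. Both libraries are replicates of groups that chose the members, and they correlated closely with the libraries the rule used. The count was thus close to fixed in advance and is no independent support for the rise. With 1 library on each side, it also has no replicate check.

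The highest members at RF show how steep the rise was. The locus chr5:7789664-7791009 (1346 bp) had 0.550, 0.418 and 0.897 FPKM at PD, 2.82 FPKM in the AP library, 41.1, 38.4 and 41.3 FPKM at SW and 115, 111 and 114 FPKM at BW. It then had 4127, 4175 and 3780.2 FPKM at CT and 3488, 3627 and 3594 FPKM at RF. Its level was thus higher in each successive stage up to CT, with no overlap between neighbouring stages, and every RF library was below every CT library.

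The locus chr7:3768191-3777136 (8946 bp) stayed low for longer. It had 0.144, 0.0371 and 0.182 FPKM at PD, 0.364 FPKM at AP, 1.84, 3.57 and 3.29 FPKM at SW and 4.58, 2.45 and 2.38 FPKM at BW. It had 947, 924 and 1000.4 FPKM at CT and 2821, 2796 and 2772 FPKM at RF. SW and BW overlapped, and the smaller of the CT and RF means was 307 times the largest early mean.

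The other 2 of the highest 4 differed in their early level. The locus chr2:3986160-3990196 had 69.4, 67.4 and 68.0 FPKM at BW, 2663, 2651 and 3185 FPKM at CT and 3207, 3135 and 3188 FPKM at RF. The locus chr7:31056530-31060470 had 106, 111 and 101 FPKM at PD, 84.0, 79.4 and 80.6 FPKM at BW, 872, 1003 and 993 FPKM at CT and 2594, 2799 and 2960.2 FPKM at RF. The locus on chromosome 2 had overlapping CT and RF libraries, whereas the one on chromosome 7 was already near 100 FPKM at PD, was lower at BW than at PD, and had RF above CT in every library. The 10 highest members of a group made up 42.8% to 59.1% of the members' summed FPKM, depending on the group.

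**Figure D3:**
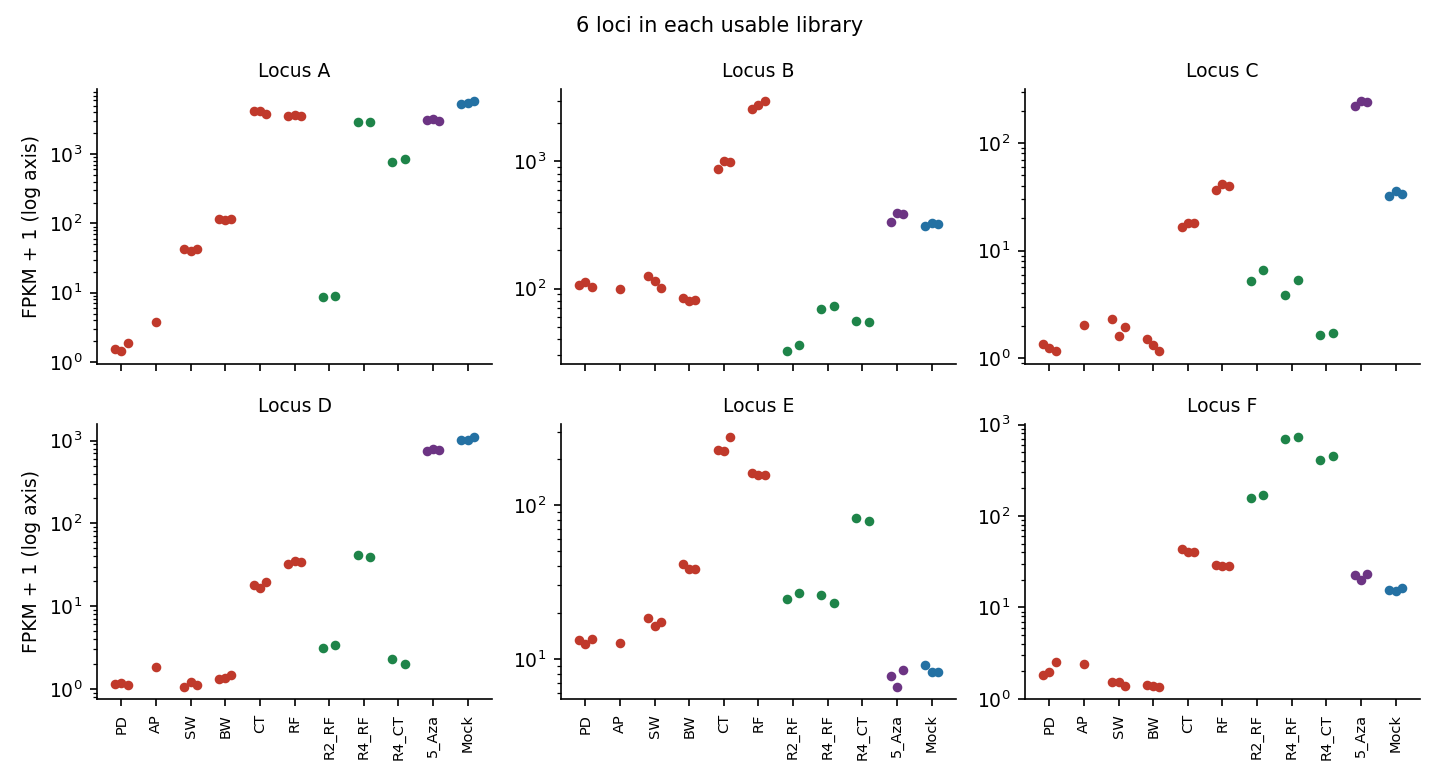
FPKM + 1 (log axis) in each usable library for 6 members: A is chr5:7789664-7791009, B is chr7:31056530-31060470, C is chr9:9216900-9217985, D is chr1:29387937-29389692, E is chr8:17618815-17621019 and F is chr6:4694232-4696002. Stage flesh is red, rind green, 5_Aza purple and Mock blue. A is at most 8.07 FPKM in R2_RF and at least 2884 FPKM in R4_RF, C is highest in 5_Aza, D is far higher in 5_Aza and Mock than in any stage, E is lowest in 5_Aza and Mock, and F is highest in rind.

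The members lay on all 11 chromosomes and on no scaffold. Chromosomes 1 and 5 held 19 each, chromosomes 6 and 10 held 16 each and chromosome 4 held 8. The share of a chromosome's loci that were members ranged from 0.407% on chromosome 2 to 0.842% on chromosome 6. Members had a median length of 1976.5 bp, against 3191 bp for the 8045 other loci with CT and RF means of at least 10 FPKM and 2347 bp for all loci. Of 131 gaps between members next to each other on a chromosome, 10 were 50000 bp or less.

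Immediate neighbours in the order of loci made up 4 pairs of members, and no run was longer. No matching count over other loci is given, so whether this is few or many was not tested. On chromosome 9, chr9:6712106-6712850 (745 bp) had 1469, 1383 and 1354 FPKM at CT and 1428, 1448 and 1455 FPKM at RF. Its neighbour chr9:6714937-6718620 had 16.4, 16.6 and 16.9 FPKM at CT and 12.2, 11.3 and 14.0 FPKM at RF. Both were below 10 FPKM in every early library, and their levels after the rise were far apart. Mean FPKM was 3.80 in R2_RF and 1000.3 in R4_RF at the first of the pair, and 0.0952 in R2_RF and 20.2 in R4_RF at its neighbour.

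The pair chr6:383144-386032 and chr6:388308-390283 parted in the rind. The first had 2.84 and 3.17 FPKM in R2_RF and 180.1 and 202 FPKM in R4_RF, and the second had 41.0 and 41.4 FPKM in R2_RF and 48.2 and 49.4 FPKM in R4_RF. Neither overlapped between R2_RF and R4_RF, but the log2 fold change was -5.58 ± 0.081 (SE) at the first and -0.24 ± 0.073 at the second (limma, adjusted p = 1.84e-15 and 0.0103). The remaining pairs were chr1:31874799-31876238 with chr1:31881860-31885087, and chr6:23023756-23028815 with chr6:23044816-23048937. All 4 of these loci fell in R2_RF relative to R4_RF, by 5.07, 2.66, 2.95 and 1.99 on the log2 scale in the order given (limma, adjusted p of 2.26e-10 or less).

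Rind of 30 DAP was compared between R2 and R4, to show how the members differ between samples of the same age. They were far lower in R2_RF. Of the 142, 125 were lower in R2_RF than in R4_RF, where 38.4% of all 16859 tested loci were lower, and 10 were higher, where 31.4% of all loci were (limma on log2(FPKM + 1), adjusted p under 0.05). By at least 2-fold, 102 members were lower (11.1% of all loci) and 4 were higher (9.37%), and 80 were lower by at least 4-fold (2.9% of all loci). Of the other loci with CT and RF means of at least 10 FPKM, 49.9% were lower and 26.7% were higher. By at least 2-fold, 13.5% of them were lower and 3.75% were higher. The median log2 fold change was -2.21 over members and -0.06 over all loci. The summed share was 0.898% and 0.901% in the R2_RF libraries, against 3.48% and 3.50% in the R4_RF libraries.

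A group of members was close to absent from R2_RF. The R2_RF mean was under 1 FPKM in 26 members (18.3%), against none of 142 in R4_RF. Of the other loci with CT and RF means of at least 10 FPKM, 56 (0.696%) were under 1 FPKM in R2_RF. Among the members, 20 (14.1%) were under 1 FPKM in R2_RF while at 10 FPKM or more in R4_RF. Among the 8045 other loci with CT and RF means of at least 10 FPKM, 27 (0.336%) showed that combination. The reverse, under 1 FPKM in R4_RF and 10 FPKM or more in R2_RF, was found in none of the members and none of the other loci. No member was under 1 FPKM in all 3 rind groups, against 0.0124% of the other loci, and 69 members (48.6%) were at 10 FPKM or more in all 3, against 87.3% of the other loci.

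The largest of these differences was at chr7:3768191-3777136, which had 1.87 and 2.31 FPKM in R2_RF, against 1587 and 1588 FPKM in R4_RF. The R2_RF values were as low as those of SW and BW flesh. The log2 fold change was -9.01 ± 0.061 (SE; limma, adjusted p = 8.38e-19). The next was chr5:7789664-7791009, with 7.63 and 8.07 FPKM in R2_RF, against 2884 and 2939.5 FPKM in R4_RF, and a log2 fold change of -8.36 ± 0.055 (adjusted p = 8.38e-19). Both loci are among the 4 highest in RF flesh. The other 2 of those 4 also changed: chr2:3986160-3990196 fell by 6.39 and chr7:31056530-31060470 fell by 1.06 on the log2 scale (adjusted p = 3.97e-18 and 3.98e-09).

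Some members went the other way. The locus chr5:18817785-18820373 had 38.9 and 45.8 FPKM in R2_RF, against 13.7 and 11.9 FPKM in R4_RF, a log2 fold change of 1.65 ± 0.096 (SE; limma, adjusted p = 2.66e-09). The locus chr3:3924135-3925379 had 91.7 and 89.7 FPKM in R2_RF, against 35.2 and 34.7 FPKM in R4_RF, a log2 fold change of 1.35 ± 0.079 (adjusted p = 2.77e-09). In both, R2_RF lay above R4_RF in every library. Both also belonged to the members with RF above CT, with 88.1, 81.3 and 80.6 FPKM at RF and 29.0, 26.2 and 34.0 FPKM at CT for the locus on chromosome 3.

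**Figure D4:**
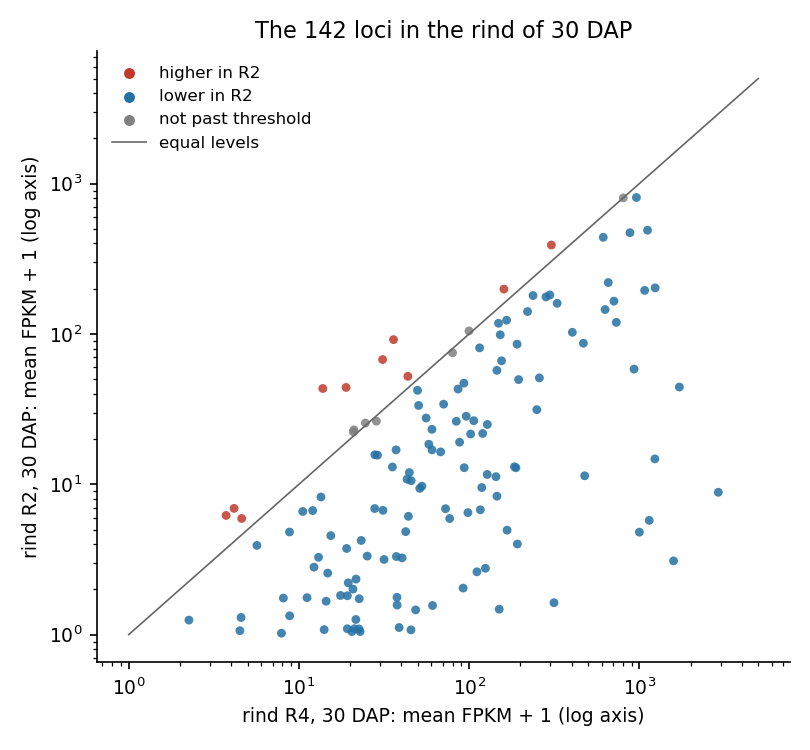
Mean FPKM + 1 of the 142 loci in R2_RF (vertical) against R4_RF (horizontal) rind of 30 DAP, on log axes, coloured by the limma call in R2_RF relative to R4_RF. Of the loci, 125 are lower in R2_RF and lie below the line of equal levels, 10 are higher, and a group with R4_RF means over 10 FPKM sits at the bottom near 0 FPKM in R2_RF.

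Rind R4 was compared between 30 and 20 DAP, the ages of RF and CT flesh. The members were higher at 30 DAP: 127 of 142 were higher, where 25.6% of all tested loci were, and 7 were lower, where 27.0% were (limma, adjusted p under 0.05). At least 2-fold, 88 were higher (3.1% of all loci) and 3 were lower (7.83%), and 24 were higher by at least 4-fold (0.51% of all loci). Of the other loci with CT and RF means of at least 10 FPKM, 33.3% were higher and 21.1% were lower. By at least 2-fold, 2.36% of them were higher and 2.66% were lower. The median log2 fold change was 1.19 over members and 0.01 over all loci. This comparison and the one between R2 and R4 share the R4_RF libraries, so they are not independent of each other.

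The largest rise was at chr1:29387937-29389692, with 40.0 and 38.7 FPKM in R4_RF, against 1.31 and 0.972 FPKM in R4_CT. It was thus close to absent from R4 rind at 20 DAP. In R4 rind at 30 DAP it was near the level of RF flesh (31.3, 34.3 and 33.4 FPKM). The log2 fold change was 4.24 ± 0.082 (SE; limma, adjusted p = 3.22e-13). The locus chr8:27580204-27581685 had 13.4 and 12.7 FPKM in R4_RF, against 0.540 and 0.289 FPKM in R4_CT, a log2 fold change of 3.32 ± 0.10 (adjusted p = 1.02e-11). In R2_RF it had 0.0811 and 0.0781 FPKM and in RF flesh 138, 142 and 152 FPKM, an R4_RF to RF ratio of 0.0908.

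Among the 7 members that were lower at 30 DAP, chr8:17618815-17621019 had 25.0 and 22.2 FPKM in R4_RF, against 81.6 and 77.4 FPKM in R4_CT. The log2 fold change was -1.71 ± 0.087 (SE; limma, adjusted p = 1.72e-09). The locus chr8:19101133-19101720 had 11.6 and 11.0 FPKM in R4_RF, against 32.0 and 27.2 FPKM in R4_CT, a log2 fold change of -1.31 ± 0.11 (adjusted p = 3.99e-07). Neither pair of groups overlapped. Both loci were also lower at RF than at CT in the flesh by their means, with ratios of 0.632 and 0.812.

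Set beside stage flesh of the same age, most members were lower in rind. The R4_RF mean was above the RF mean in 33 of 142 members, and the median R4_RF to RF ratio was 0.593. The R2_RF mean was above the RF mean in 11 members, and the median ratio was 0.104, with 70 members (49.3%) at 0.1 or less, against 2.31% of the other loci at 10 FPKM or more. At 20 DAP the median R4_CT to CT ratio was 0.331. Over the 8045 other loci the median ratios were 0.980 for R4_RF, 0.860 for R2_RF and 0.978 for R4_CT. Of those loci, 47.9% had an R4_RF to RF ratio of 1 or more, and 40.7% had an R2_RF to RF ratio of 1 or more. These ratios use the groups that chose the members and cross the number formats, so they have no test.

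The member most raised in rind was chr6:4694232-4696002. It had 158 and 171 FPKM in R2_RF, 686 and 731 FPKM in R4_RF and 409 and 454 FPKM in R4_CT, beside 27.8, 27.5 and 27.4 FPKM at RF and 42.4, 39.4 and 39.5 FPKM at CT. Every rind library was thus above every flesh library of this locus. The next by its R2_RF to RF ratio of 4.44 was the short locus chr11:25642348-25642650 (303 bp), with 78.3 and 69.7 FPKM in R2_RF and 14.8, 13.8 and 21.3 FPKM at RF. It had 151, 140.5 and 135 FPKM in Mock flesh, so that its low level was in stage flesh and not in all flesh.

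Rind and flesh of 20 DAP could be tested within one number format as R4_CT against Mock. Of 142 members, 130 were lower in R4_CT, where 34.4% of all tested loci were, and 9 were higher, where 43.3% were (limma, adjusted p under 0.05). By at least 2-fold, 115 were lower (10.1% of all loci) and 5 were higher (17.2%). Of the other loci with CT and RF means of at least 10 FPKM, 44.3% were lower and 35.2% were higher. By at least 2-fold, 10.3% of them were lower and 8.90% were higher. The median log2 fold change was -2.18 over members and 0.10 over all loci. The rind libraries carry a later block of sample numbers than Mock, which need not be a batch, and Mock has no cultivar label. Tissue, that block and any difference in plant material thus cannot be told apart here.

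Levels of at least 1024 FPKM in Mock gave the largest of these differences. The locus chr10:31665829-31668150 had 0.936 and 1.17 FPKM in R4_CT, against 2011, 1809.8 and 1788 FPKM in Mock, a log2 fold change of -9.83 ± 0.094 (SE; limma, adjusted p = 6.32e-17). The locus chr1:29387937-29389692 had 1.31 and 0.972 FPKM in R4_CT, against 1024, 1025 and 1109 FPKM in Mock, a log2 fold change of -8.95 ± 0.075 (adjusted p = 4.35e-17). In stage flesh neither came near its Mock level.

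Against these, chr6:4694232-4696002 had 409 and 454 FPKM in R4_CT, against 14.5, 14.1 and 15.1 FPKM in Mock, a log2 fold change of 4.79 ± 0.059 (SE; limma, adjusted p = 3.72e-16). The locus chr8:17618815-17621019 had 81.6 and 77.4 FPKM in R4_CT, against 8.14, 7.21 and 7.27 FPKM in Mock, a log2 fold change of 3.24 ± 0.079 (adjusted p = 1.82e-13). Groups did not overlap in any of these 4 loci.

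Mock and CT flesh have the same labelled age, and most members were high in both. In Mock, 138 of 142 members had a mean of 10 FPKM or more, against 42.3% of all loci. The rule required at least 10 FPKM at CT and RF, so this count was close to fixed in advance. The share over all loci includes loci low in flesh, and no matching share over the other loci at 10 FPKM or more is given. The median Mock to CT ratio was 1.57 over members and 1.06 over the other loci at 10 FPKM or more. The ratio was 2 or more in 56 members (39.4%, against 11.2% of the other loci) and 0.5 or less in 13 (9.15%, against 8.48% of the other loci), and it ranged from 0.0127 to 62.0. At 10 or more stood 6 members (4.23%), against 0.174% of the other loci.

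The 2 highest ratios were at chr1:29387937-29389692, with 16.8, 15.7 and 18.3 FPKM at CT, and at chr10:31665829-31668150, with 49.6, 48.4 and 57.6 FPKM at CT and 44.1, 43.5 and 44.3 FPKM at RF. The 2 lowest were at chr8:17618815-17621019, with 226, 224 and 276 FPKM at CT, and at chr1:4400899-4401279. The last had 0.200, 0.246 and 0.0783 FPKM in Mock beside 7.38, 14.0 and 13.6 FPKM at CT and 10.7, 9.10 and 14.0 FPKM at RF. For these loci 2 sets of flesh of the same labelled age thus gave levels that did not overlap, and their difference in number format and labels cannot be told apart from one in the fruit.

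The treated flesh, 5_Aza, was compared with Mock to see how the members responded. More members were lower than higher. Of the 141 that passed the filter on low values, 80 were lower in 5_Aza, where 13.3% of all 15552 tested loci were, 29 were higher, where 29.5% were, and 32 did not pass the threshold (limma, adjusted p under 0.05). The member that failed the filter was chr1:4400899-4401279, with 0.483, 0.366 and 0.332 FPKM in 5_Aza. On the log2(FPKM + 1) scale, 1 member was lower by at least 2-fold (0.186% of all loci) and 4 were higher (4.09%). By the ratio of mean FPKM, without the added 1, 3 of all 142 members stood at 0.5 or less and 5 at 2 or more, against 0.199% and 1.06% of the other loci at 10 FPKM or more. By the limma call, 19.0% of these other loci were lower and 24.1% were higher. On the log2(FPKM + 1) scale, 0.149% of them were lower by at least 2-fold and 0.933% were higher. The median log2 fold change was -0.22 over members, 0.07 over all loci and 0.02 over the other loci at 10 FPKM or more. With libraries scaled by median of ratios, all loci divided into 3308 higher and 3479 lower, in place of 4586 higher and 2064 lower, and the members into 24 higher and 91 lower.

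The members' share of summed FPKM was 5.64% ± 0.026 in 5_Aza and 6.53% ± 0.040 in Mock (SD, n = 3 each), with no overlap between the groups. The highest member contributed, as chr5:7789664-7791009 had 3115, 3186 and 3021 FPKM in 5_Aza, against 5221, 5381 and 5738 FPKM in Mock. Its log2 fold change was -0.81 ± 0.036 (SE; limma, adjusted p = 2.91e-08). At chr7:3768191-3777136 the values were 1648, 1762 and 1728 FPKM in 5_Aza, against 1992, 1975 and 2085 FPKM in Mock, a log2 fold change of -0.24 ± 0.034 (adjusted p = 0.000202). The 5_Aza libraries of both loci were below every Mock library. At chr2:3986160-3990196 the log2 fold change was 0.03 ± 0.028 (adjusted p = 0.45), which did not pass the threshold, and at chr7:31056530-31060470 it was 0.21 ± 0.058 (adjusted p = 0.0122).

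The largest fall on the log2(FPKM + 1) scale was at chr5:6677813-6679042, with 6.18, 4.09 and 4.49 FPKM in 5_Aza, against 10.4, 13.4 and 9.28 FPKM in Mock. Its log2 fold change was -1.02 ± 0.15 (SE; limma, adjusted p = 0.000215). Next came chr11:27660231-27660926, with 59.5, 58.0 and 58.2 FPKM in 5_Aza, against 119.5, 116 and 114 FPKM in Mock, a log2 fold change of -0.98 ± 0.038 (adjusted p = 8.54e-09). All treated libraries of these loci lay below all Mock libraries, and the first of them rests on lower values and a wider spread.

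The largest rise was at chr9:9216900-9217985 (1086 bp), with 218, 242 and 240.2 FPKM in 5_Aza, against 31.3, 35.1 and 32.8 FPKM in Mock. Its log2 fold change was 2.78 ± 0.054 (SE; limma, adjusted p = 1.01e-10). The 5_Aza level was above every other library of the series at this locus, which reached 40.7 FPKM at RF, 5.59 FPKM in R2_RF and 4.37 FPKM in R4_RF. The locus chr9:7892225-7893987 had 79.8, 78.9 and 88.6 FPKM in 5_Aza, against 27.2, 27.2 and 26.7 FPKM in Mock, a log2 fold change of 1.57 ± 0.051 (adjusted p = 2.83e-09). At CT it had 74.9, 76.0 and 88.4 FPKM, a range that overlaps the 5_Aza libraries. The locus chr5:2292734-2294912, with the largest RF to CT ratio, had 383, 393 and 380.2 FPKM in 5_Aza, against 125, 131 and 136 FPKM in Mock, a log2 fold change of 1.55 ± 0.039 (adjusted p = 3.87e-10).

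**Figure D5:**
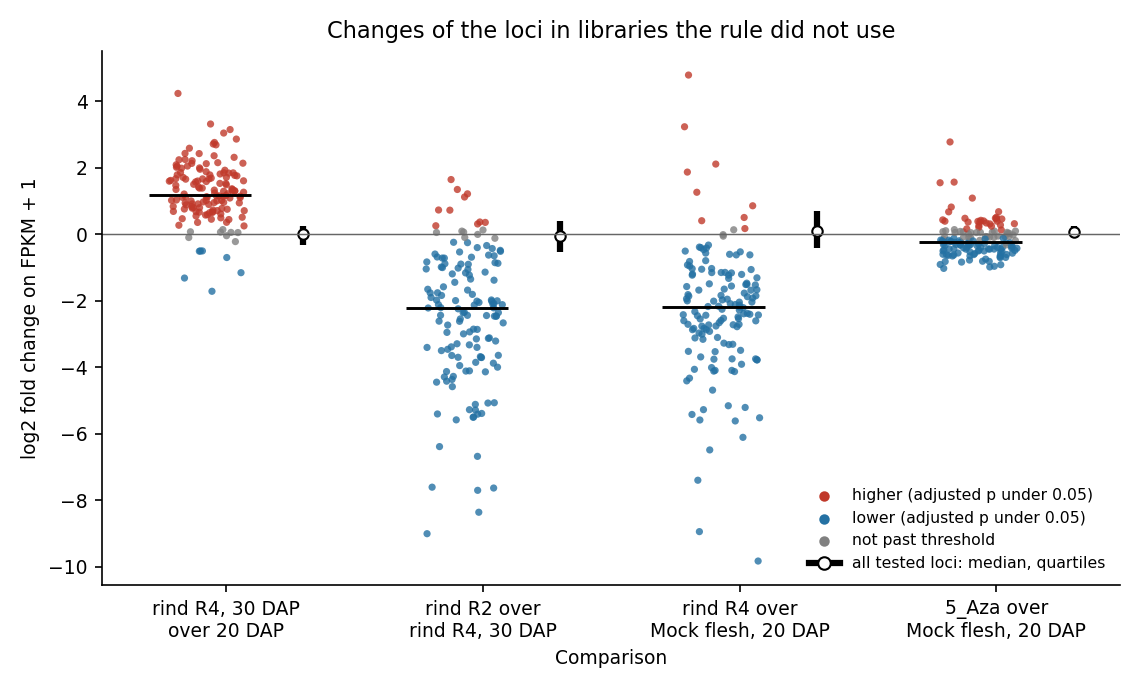
Log2 fold change on FPKM + 1 of each member in the 4 tested comparisons, with a line at the members' median and, beside it, the median and quartiles of all tested loci. Members are mostly higher in R4 rind at 30 than at 20 DAP (median 1.19), lower in R2_RF than in R4_RF (-2.21) and in R4_CT than in Mock (-2.18), and slightly lower in 5_Aza than in Mock (-0.22).

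Grouped by the size of the rise in flesh, the members did not follow one order in the other comparisons. In R2_RF relative to R4_RF, the median log2 fold change was -1.98 over the 69 members at 4 to under 8 times the early means, -1.69 over the 30 at 8 to under 16 times and -3.70 over the 43 at 16 times or more. In R4_RF relative to R4_CT, the medians of these classes were 0.96, 1.07 and 1.68. In R4_CT relative to Mock they were -1.94, -1.68 and -3.12. The class with the steepest rise thus had the largest median in each rind comparison, while the middle class was nearest 0 in those that set R2_RF against R4_RF and R4_CT against Mock. For 5_Aza relative to Mock the medians were -0.20, -0.09 and -0.33, the last over the 42 tested of 43. R2_RF was under 1 FPKM in 5 of the 69, 7 of the 30 and 14 of the 43, against 0.696% of the other loci at 10 FPKM or more. All 7 members lower in R4 rind at 30 than at 20 DAP were among the 69. These classes come from the values that chose the members, and the differences between them were not tested.

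The members were also sorted by the RF to CT ratio. The 42 members with RF below CT, the 71 with a ratio of 1 to under 2 and the 29 with a ratio of 2 or more had median log2 fold changes in R4_RF relative to R4_CT of 1.05, 1.16 and 1.59. At 30 DAP in R4 rind, 34 of the 42 were higher and 4 were lower, 66 of the 71 were higher and 2 were lower, and 27 of the 29 were higher and 1 was lower. In 5_Aza relative to Mock, 8 of the 41 tested members with RF below CT were higher and 21 were lower. Of the 71, 11 were higher and 45 were lower, and of the 29, 10 were higher and 14 were lower. Of all tested loci, 25.6% were higher and 27.0% lower in R4_RF relative to R4_CT. In 5_Aza relative to Mock, 29.5% of all tested loci were higher and 13.3% lower. The differences between the classes were not tested either.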

How the data were processed

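Loci were matched across the 30 deposited tables, whose values the authors gave as FPKM per locus, per the file headers. Reads had passed through fastp, HISAT2 and SAMtools 1.5, per the submitters' processing notes. Quantifier, annotation and genome build: not given in the sources used here. Total RNA was extracted with Trizol and cleaned with DNase I, per the labels' protocols. Depth was not recovered: at low values at most 0.411% of loci shared one ratio between replicates of Mock, 5_Aza or rind, and at most 5.21% between replicates of a flesh stage.

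In PD replicate 3, 11643 values sat 1 row off and were moved. Their correlation with PD replicate 1 was 0.119 before and 0.993 after the move. AP replicates 1 and 2 correlated at 0.00865 and 0.00772 at most with other libraries and were not used. Blocks of 50 loci with a correlation under 0.8 were left out in CT replicate 1 (on chromosome 1, 28189554 to 28726638) and AP replicate 3 (scaffolds).

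Tests used limma 3.58.1 in R 4.3.3 on log2(FPKM + 1), with trended, robust empirical Bayes and Benjamini-Hochberg adjustment over all tested loci at 0.05. A locus needed 1 FPKM in 3 of the 6 libraries of 5_Aza and Mock, or in 2 of the 9 libraries of Mock and rind, which shared 1 fit. The pseudocount of 1 understates fold changes of low loci. The code was tested on simulated data. Alternatives were a pseudocount of 0.1, no filter, median-of-ratios scaling, non-robust moderation, 1 joint fit, a replicate block and leaving out each library.

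Loci were named by rule: the 4 highest at RF, up to 2 higher and 2 lower per comparison, the extremes of RF to CT, Mock to CT and R2_RF to RF, those nearest the 4-fold limit, and neighbours. The classes by size of rise were formed after values were seen. The members and lists were chosen with earlier results of these data known. Lists by product description could not be applied, since no annotation was used here.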

Additional observations from a re-analysis of the deposited data

How the results depend on the processing

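The number of members depended most on the least fold of the rule: a least fold of 8 gave 73 and a least fold of 3 gave 208. A least mean of 5 FPKM gave 165, median-of-ratios scaling 183, and means over all usable libraries 143, of which 140 were shared. Leaving out 1 library gave 141 to 151 members, the highest without CT replicate 2.

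Every count of members called stayed within 1.5 times its value under each alternative run. For 5_Aza relative to Mock, 24 to 29 were higher and 79 to 91 lower, and leaving out 1 library gave 25 to 29 and 79 to 83. R4_RF relative to R4_CT gave 125 to 128 higher and 6 to 7 lower, R2_RF relative to R4_RF 8 to 11 higher and 123 to 125 lower, and R4_CT relative to Mock 8 to 10 higher and 130 to 131 lower. The 172 alternative values of the loci named in these comparisons kept their direction and stayed past the threshold, with adjusted p up to 0.00199 (limma). After scaling, the median over all loci was -0.01 in place of 0.07 (log2, 5_Aza relative to Mock). Members at 10 FPKM or more in Mock numbered 137 to 138.

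The replicate numbers were not taken to pair the libraries. Deviations of same-numbered libraries correlated at 0.0639, -0.0473 and -0.0262 between 5_Aza and Mock, at 0.0329 between R4_RF and R4_CT, and at 0.0548 and 0.0106 between R4_CT and Mock. Between R2_RF and R4_RF they correlated at 0.119, from 2 libraries each. With the replicate block, the counts were 28 higher and 81 lower in 5_Aza, 127 and 7 in R4_RF relative to R4_CT, 10 and 125 in R2_RF relative to R4_RF, and 8 and 130 in R4_CT relative to Mock.

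With 2 libraries per rind group, a rind group left with 1 library was assumed to vary like the others. Read depth is unknown, so no counting error can be given and levels under 1 FPKM are uncertain.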
